A study of Saccharomyces cerevisiae and Saccharomyces mikatae and Saccharomyces paradoxus with 13 samples.

Results

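Haploid a cells of budding yeast answer alpha factor, the peptide pheromone made by alpha cells, through a receptor, a heterotrimeric G protein and a MAP kinase cascade that ends at the transcription factor Ste12. The cells stop dividing before DNA replication, turn on genes for adhesion, cell fusion and nuclear fusion, and grow a projection towards the partner. S. paradoxus is the closest known relative of S. cerevisiae, and the comparison described here asks which genes answered the same pheromone treatment differently in these 2 species.

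The quantity analysed is the mean log2 ratio of treated over untreated cells in S. paradoxus minus the same mean in S. cerevisiae. It was taken for every ORF with at least 2 measured arrays in each species, which gave 4718 of the 6132 ORFs in the table. The S. cerevisiae cells were BY4741, a wild-type haploid laboratory strain of mating type a (background: the strain lacks HIS3, LEU2, MET17 and URA3). The S. paradoxus cells were a haploid strain of type a derived from CBS432. Both were grown in YPD at 30 °C to log phase and given 6 µM alpha factor for 60 min, and each array set treated RNA against RNA of the same species without alpha factor. Each species had 3 arrays, described as biological replicates, and each was represented by 1 strain, so strain and species cannot be told apart. A further 4 arrays of S. mikatae a cells (from IFO 1815) after the same treatment, and 3 arrays of BY4741 mixed with BY4742 on a filter for 90 min, are given beside single genes as values.

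All arrays carried S. cerevisiae cDNA probes. The S. cerevisiae arrays gave 5678 to 5964 values each and the S. paradoxus arrays 4367 to 4777, and 1071 ORFs with at least 2 values in S. cerevisiae were left out because S. paradoxus had fewer than 2. Mismatch between a probe and S. paradoxus RNA was not measured. Treated and untreated RNA of 1 species met the same probe, so the differences below compare ratios, not levels, of the 2 species. Whether mismatch changed the ratio of a gene in S. paradoxus was not tested. The labels disagree among themselves about the dye of the treated RNA. The ratios are read as treated over untreated because of the channel order and because known mating genes such as FIG1 then rise in both species, so directions are likely rather than certain. Precision is limited by the 3 arrays per species. The S. paradoxus ratios were spread more widely (SD of 0.498 to 0.545 on an array) than those of S. cerevisiae (0.417 to 0.466), and scaling all arrays to one spread changed several results below.

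The 2 responses resembled each other but differed for many genes. Across the 4718 ORFs the species means correlated at a Pearson r of 0.659 (Spearman 0.584), a description across genes, which are not independent. Single arrays correlated at 0.770 to 0.874 within S. cerevisiae, at 0.813 to 0.877 within S. paradoxus and at 0.552 to 0.675 between the species. limma found 807 ORFs (17.1%) whose responses differed at a Benjamini-Hochberg adjusted p under 0.05, 448 higher in S. paradoxus (9.5%) and 359 lower (7.61%). Of these, 92 (1.95%) differed at least 2-fold, 57 higher and 35 lower. The 3 arrays of one species lay wholly above or below those of the other for 804 of the 807, and for 39.1% of all ORFs tested (20.5% with all S. paradoxus arrays above and 18.7% with all below).

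Most of the called differences lay in genes that passed the test against 0 in S. paradoxus alone. Of the 807, 430 changed in S. paradoxus and missed the threshold in S. cerevisiae, 262 of them rising and 168 falling. Another 134 changed in S. cerevisiae and missed the threshold in S. paradoxus, 66 rising and 68 falling. In 150 both responses had the same sign, and the S. paradoxus response was the larger one in 119. In 77 (1.63% of ORFs tested) both responses passed the test in opposite directions, and in 16 neither passed. Over the same ORFs 781 rose (16.6%) and 879 fell (18.6%) in S. cerevisiae, against 1142 (24.2%) and 1179 (25%) in S. paradoxus. With arrays scaled to one spread the numbers were close, at 958 rising and 1068 falling in S. cerevisiae and 1007 and 1030 in S. paradoxus.

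**Figure D1:**
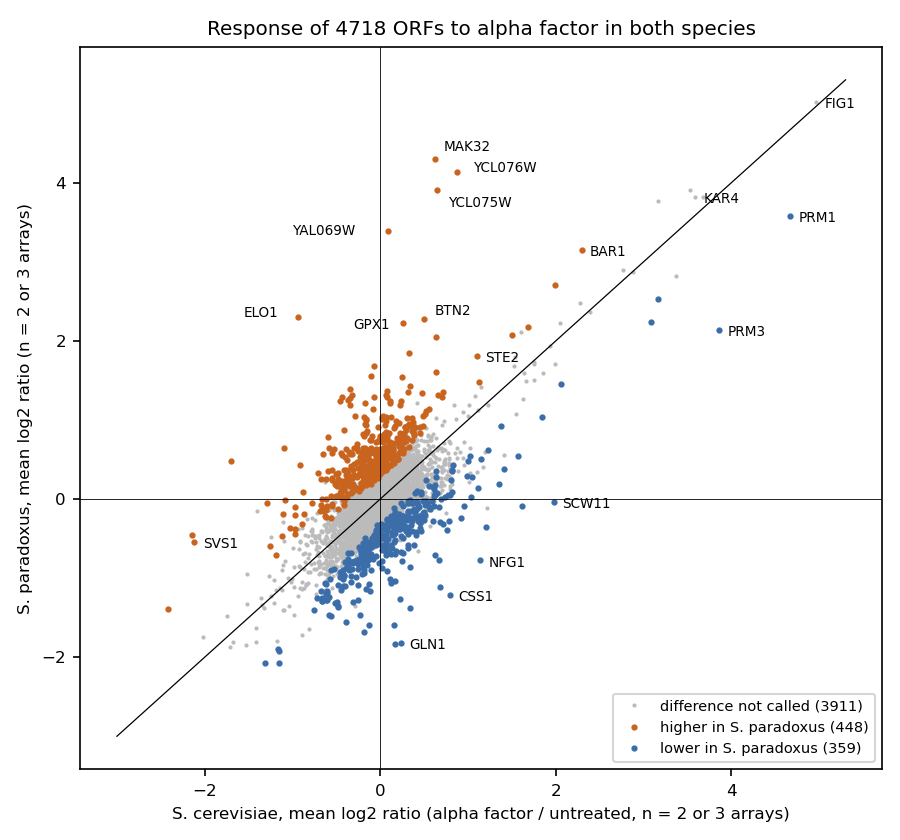
Mean log2 ratio after alpha factor in S. cerevisiae (x axis) and in S. paradoxus (y axis), 1 point per ORF for 4718 ORFs, with the line of equal response. The 448 ORFs higher and 359 lower in S. paradoxus at adjusted p under 0.05 are coloured; MAK32, 2 neighbouring ORFs of chromosome III, YAL069W and ELO1 stand apart above the line, while FIG1 and KAR4 lie near it.

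The highest differences belonged to a few genes that rose steeply in S. paradoxus and little or not at all in S. cerevisiae. MAK32 (YCR019W), needed for stable maintenance of the killer virus, read 0.60, 0.58 and 0.70 on the S. cerevisiae arrays and 4.03, 4.57 and 4.30 on the S. paradoxus arrays. The groups were far apart, with a difference of 3.67 ± 0.127 (SE, n = 3 and 3; limma adjusted p = 1.29e-09), a 12.8-fold gap. S. mikatae read 0.30 ± 0.15 (SD, n = 3), and the next gene on the chromosome, PET18, differed by −0.05 between S. paradoxus and S. cerevisiae (adjusted p = 0.81).

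ELO1 (YJL196C), which elongates medium-chain fatty acids, moved in opposite directions. Its S. cerevisiae arrays read −0.98, −1.04 and −0.79 and its S. paradoxus arrays 2.22, 2.64 and 2.05. It fell in one species and rose in the other, with a difference of 3.24 ± 0.153 (SE, n = 3 and 3; limma adjusted p = 1.15e-07). S. mikatae, at −0.70 ± 0.17 (SD, n = 4), lay on the side of S. cerevisiae, and the flanking ORFs YJL195C and UBP12 differed by −0.02 and −0.11 (limma adjusted p = 0.943 and 0.626).

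Rises of similar size were also read at 3 ORFs that carry only a systematic name here. YAL069W read −0.02, 0.17 and 0.12 in S. cerevisiae and 3.30, 3.78 and 3.08 in S. paradoxus, a difference of 3.29 ± 0.154 (limma adjusted p = 2.56e-07, n = 3 and 3). YCL075W, annotated as a pseudogene, read 0.94, 0.54 and 0.45 against 4.01, 4.34 and 3.37, and its neighbour YCL076W read 1.16, 0.44 and 1.02 against 3.99, 4.59 and 3.81. Both differed by 3.26, and none of these 3 ORFs had a value in S. mikatae. Whether their probes met RNA of another locus in S. paradoxus was not tested.

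The other genes among the 12 highest differed by 1.62 to 1.97. GPX1, a glutathione peroxidase, read 0.42, 0.38 and −0.03 in S. cerevisiae and 2.67, 1.89 and 2.12 in S. paradoxus (difference 1.97 ± 0.186, limma adjusted p = 9.55e-05, n = 3 and 3). BTN2, a protein that sorts misfolded proteins into deposits, differed by 1.78, and HEL2, the ubiquitin ligase that marks collided ribosomes, by 1.75. HEL2 was near 0 in S. cerevisiae, rose by 1.68 ± 0.275 (SD, n = 3) in S. paradoxus and read 1.04 ± 0.176 (n = 4) in S. mikatae. MLH2, a mismatch repair protein, and CTL1, an RNA triphosphatase, differed by 1.74 and 1.62, and YNL043C, an ORF with no annotation in the reference, by 1.64. HSP30, a stress-induced regulator of the plasma membrane proton pump, fell in S. cerevisiae (−0.87, −0.94 and −1.46) and rose in S. paradoxus (0.66, 0.52 and 0.75), a difference of 1.74 ± 0.142 (limma adjusted p = 4.6e-06).

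Among the lowest differences were metabolic genes that fell in S. paradoxus and not in S. cerevisiae, and wall or mating genes that rose in S. cerevisiae. GLN1, glutamine synthetase, read 0.54, 0.50 and −0.33 in S. cerevisiae and −1.52, −1.35 and −2.60 in S. paradoxus. Replicate 3 was the lowest in each species (difference −2.06 ± 0.292, limma adjusted p = 0.000757, n = 3 and 3), and S. mikatae read −0.98 ± 0.0728 (SD, n = 4). MET6, methionine synthase, differed by −1.72, PCK1, the gluconeogenic kinase, by −1.75, ICL1, isocitrate lyase of the glyoxylate cycle, by −1.49 and ASF1, a histone chaperone, by −1.50. Of these, MET6 rose in S. cerevisiae (0.34 ± 0.17, limma adjusted p = 0.038, SD, n = 3), and all 4 fell in S. paradoxus.

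SCW11, a glucanase-like protein of the daughter cell wall, read 1.89, 2.09 and 1.94 in S. cerevisiae and 0.10, −0.05 and −0.15 in S. paradoxus. It rose in S. cerevisiae and read near 0 on every S. paradoxus array (difference −2.01 ± 0.117, limma adjusted p = 1.15e-07, n = 3 and 3). PMU1, a putative phosphomutase, had the same shape, at 1.62 ± 0.153 against −0.08 ± 0.162 (SD, n = 3 each; difference −1.70). KRE6, which builds the beta-1,6-glucan of the wall, rose in S. cerevisiae (1.16, 1.34 and 1.10) and fell in S. paradoxus (−0.21, −0.55 and −0.32), a difference of −1.56 ± 0.14 (limma adjusted p = 1.03e-05). CSS1 and NFG1, a negative regulator of filamentous growth, also rose in one and fell in the other, with differences of −2.001 and −1.91.

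YLL053C read 0.01, 0.67 and −0.19 in S. cerevisiae and −1.81, −1.83 and −1.86 in S. paradoxus (difference −1.99 ± 0.251, limma adjusted p = 0.000346). Its neighbour AQY2, an aquaporin gene, differed in the same direction, by −0.83, but missed the threshold (limma adjusted p = 0.0756). Whether both ORFs read the same transcript was not tested. Of the chromosomal neighbours of these 24 genes that were not themselves among them, 34 were tested. Of those, 6 (17.6%) differed, against 17.1% of all ORFs. Each of the 6 lay on the same side as the gene beside it, while 9.5% of all ORFs were higher and 7.61% lower. Higher were SMF3 by MLH2 (0.88), YIP3 by YNL043C (0.68) and YMR181C by CTL1 (0.82). Lower were CGR1 by SCW11 (−0.87), UBP11 by PCK1 (−0.54) and GPH1 by KRE6 (−1.43). Why these neighbours went the same way was not tested. All 24 genes kept their call with any single array left out and under each of the 9 other settings tried.

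**Figure D2:**
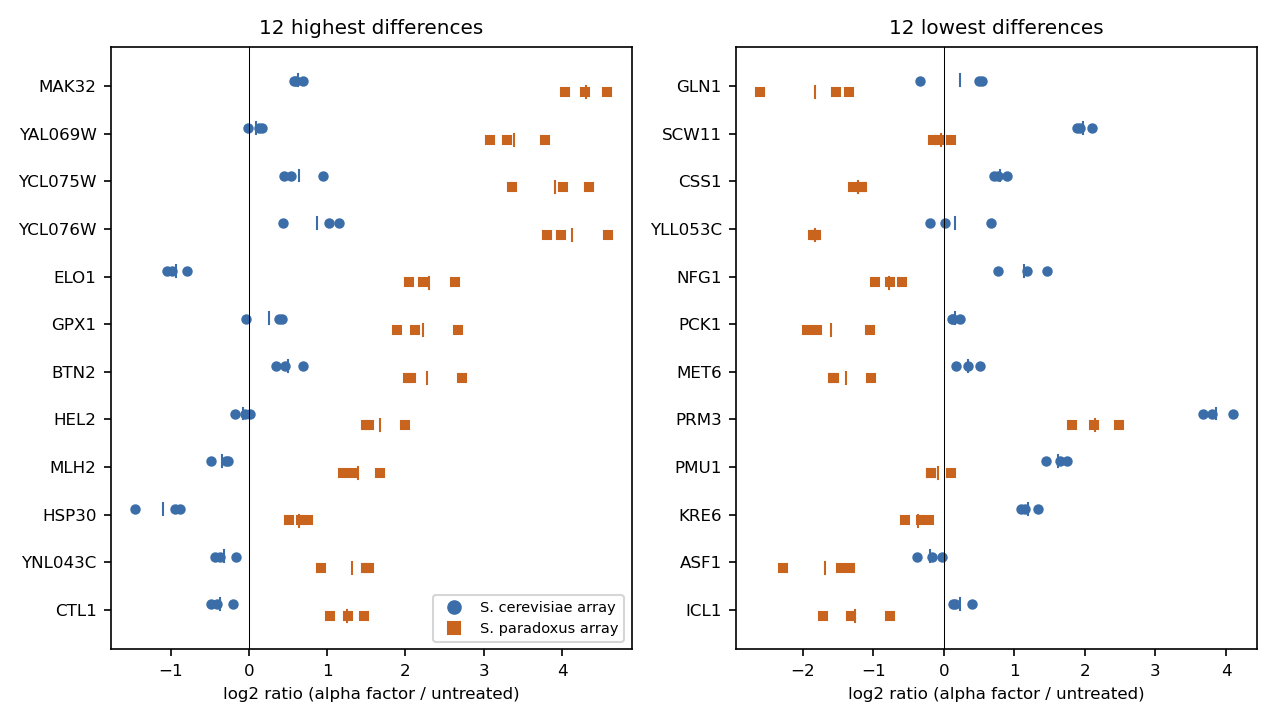
Log2 ratio of treated over untreated cells on each array (points; ticks are means of 3 arrays) for the 12 highest (left) and 12 lowest (right) differences. They were chosen among called ORFs measured on all 6 arrays without overlap between the species. The lack of overlap is thus a condition of the choice. MAK32 lies between 4.03 and 4.57 in S. paradoxus, while SCW11 lies between 1.89 and 2.09 in S. cerevisiae.

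Among mating genes the differences went both ways. Of 7 a-specific genes, which a cells express and alpha cells do not, all rose in both species, 3 of them more and 1 less in S. paradoxus (median difference 0.61). Those shares were 42.9% and 14.3%, against 9.5% and 7.61% of all ORFs. STE2, the alpha factor receptor, read 0.84, 1.27 and 1.20 in S. cerevisiae and 1.76, 1.96 and 1.71 in S. paradoxus. BAR1, the secreted protease that degrades alpha factor, read 1.70, 2.76 and 2.42 against 2.96, 3.34 and 3.16, and STE6, the a-factor exporter, 0.48, 0.68 and 0.81 against 1.25, 1.40 and 1.29. All 3 were higher on every S. paradoxus array, by 0.71 ± 0.141, 0.86 ± 0.206 and 0.66 ± 0.141 (SE; limma adjusted p = 0.00378, 0.0116 and 0.00609).

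None of these 3 passed once arrays were scaled to one spread. AGA2, the agglutinin subunit that binds alpha cells, was lower in S. paradoxus, at 2.53 ± 0.121 against 3.16 ± 0.188 (SD, n = 3 each; difference −0.63, limma adjusted p = 0.00613). MFA1 and MFA2, which encode a-factor, differed by 0.26 and 0.22 (adjusted p = 0.422 and 0.526). Of 7 a-factor processing genes 1 was higher (14.3%, against 9.5% of all ORFs) and none lower (against 7.61%). It was RAM1, the farnesyltransferase subunit that modifies a-factor and other proteins such as Ras. It read 0.08, 0.09 and 0.03 in S. cerevisiae and 1.31, 1.43 and 1.20 in S. paradoxus (difference 1.25 ± 0.0935, limma adjusted p = 4.6e-06), and 1.07 ± 0.07 (SD, n = 3) in S. mikatae.

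In the signalling pathway 2 of 20 tested genes were higher in S. paradoxus (STE2 and the MAP kinase kinase kinase STE11, by 0.36) and 4 were lower, with a median difference of −0.11 beside −0.01 for all ORFs. As shares, 10% were higher and 20% lower, against 9.5% and 7.61% of all ORFs. The higher count was 0 with arrays scaled to one spread, and 1 without S. cerevisiae replicate 2 or 3 or S. paradoxus replicate 1 or 2. FUS3, the MAP kinase of mating, rose in both, to 2.18, 2.15 and 1.84 in S. cerevisiae and 1.37, 1.65 and 1.33 in S. paradoxus (difference −0.61 ± 0.118, limma adjusted p = 0.00333, n = 3 and 3). KSS1, the MAP kinase of filamentous growth that also acts in mating, rose in S. cerevisiae (0.79, 0.67 and 0.75) and read −0.02, −0.06 and 0.16 in S. paradoxus (difference −0.71). S. mikatae read 1.63 ± 0.161 (SD, n = 3) for KSS1, above both. DIG2, an inhibitor of Ste12, rose in both and less in S. paradoxus (difference −0.64). STE4, the G protein beta subunit, fell in S. paradoxus (−0.70, −0.60 and −0.80) and read 0.36, 0.04 and −0.03 in S. cerevisiae (difference −0.82 ± 0.114, limma adjusted p = 0.000366).

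Several feedback and arrest genes rose in both species without a difference past the threshold. SST2, which speeds the G protein back to its inactive state, rose by 1.64 ± 0.0723 and 1.59 ± 0.028 (SD, n = 3 each), a difference of −0.05 with a 95% interval of −0.28 to 0.19. AFR1, which dampens receptor signalling, differed by −0.03 (−0.34 to 0.28), and FAR1, the cyclin-dependent kinase inhibitor of the arrest, by −0.26 (−0.77 to 0.24). ASG7, an a-specific inhibitor of the G protein beta subunit Ste4, rose by 3.16 ± 0.166 in S. cerevisiae and 3.77 ± 0.178 in S. paradoxus, with all S. paradoxus arrays higher, but missed the threshold (limma adjusted p = 0.0605).

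Of 17 cell fusion and adhesion genes tested, 3 were higher (17.6%) and 4 lower (23.5%) in S. paradoxus (median difference −0.02). Among all ORFs 9.5% were higher and 7.61% lower. FIG1, a membrane protein of the mating projection, read 4.83, 5.10 and 4.96 in S. cerevisiae and 4.98, 5.05 and 5.03 in S. paradoxus, so the species overlapped (difference 0.05, 95% interval −0.27 to 0.37). AGA1, the agglutinin anchor, differed by 0.14 (−0.35 to 0.63). PRM1, which acts in plasma membrane fusion, rose in both but less in S. paradoxus, at 4.67, 4.96 and 4.38 against 3.76, 3.10 and 3.87 (difference −1.09 ± 0.204, limma adjusted p = 0.00348, n = 3 and 3).

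PRM2 rose to 3.09 ± 0.525 and 2.24 ± 0.302 (SD, n = 3 each; difference −0.85, limma adjusted p = 0.0466), and its call was lost when any of 5 of the 6 arrays was left out, S. cerevisiae replicate 2 being the exception (adjusted p up to 0.138). PRM7 fell in both species, more in S. paradoxus (difference −0.73, limma adjusted p = 0.012), and lost its call after scaling to one spread and without S. cerevisiae replicate 3 or S. paradoxus replicate 1 or 2 (adjusted p up to 0.0577). FUS1, a cell fusion protein, was higher in S. paradoxus, at 2.09, 2.34 and 1.80 against 1.26, 1.64 and 1.60 (difference 0.58 ± 0.186, limma adjusted p = 0.0474). This call was also lost after scaling to one spread, and when any array but S. paradoxus replicate 3 was left out (adjusted p up to 0.175). The last 2 higher members were ERG6, a sterol methyltransferase, and RVS161, a membrane-bending protein, by 0.85 and 0.49. With arrays scaled to one spread 1 member was higher and 5 were lower. Of the 3 higher members 1 was called without S. cerevisiae replicate 1 or S. paradoxus replicate 1, and of the 4 lower ones 2 were called without S. cerevisiae replicate 3 or S. paradoxus replicate 1 or 2.

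Of 17 nuclear fusion genes 2 were higher (CIK1 and SEC66) and 3 lower (PRM3, PRM2 and SEC72). These shares were 11.8% and 17.6%, against 9.5% and 7.61% of all ORFs. The lower count was 1 without S. cerevisiae replicate 1 or 3 or S. paradoxus replicate 1 or 3, and the higher count was 1 without S. cerevisiae replicate 3 or S. paradoxus replicate 2 and with arrays scaled to one spread. PRM3, a nuclear envelope protein needed for nuclei to fuse, read 4.10, 3.67 and 3.79 in S. cerevisiae and 2.13, 1.81 and 2.48 in S. paradoxus. It rose in both species, 3.29-fold less in S. paradoxus (difference −1.72 ± 0.171, limma adjusted p = 0.000123, n = 3 and 3), and the filter matings read 3.88. KAR4, the Ste12 partner for these genes, differed by 0.23 (limma adjusted p = 0.345). CIK1, the partner of the kinesin Kar3, was higher in S. paradoxus (difference 0.72, limma adjusted p = 0.0234), a call that was lost after scaling to one spread and without S. cerevisiae replicate 2 or 3 or S. paradoxus replicate 2 (adjusted p up to 0.0819). Among alpha-specific genes, which a cells keep off, STE3 read 0.14 ± 0.0669 and 0.50 ± 0.0523 (difference 0.36, limma adjusted p = 0.0418), and lost its call with any array left out (adjusted p up to 0.108) and after scaling to one spread. SAG1 rose in S. cerevisiae alone (0.54 ± 0.276 against −0.06 ± 0.117; difference −0.60, limma adjusted p = 0.0101), and missed the threshold without S. cerevisiae replicate 3 (adjusted p = 0.0514).

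**Figure D3:**
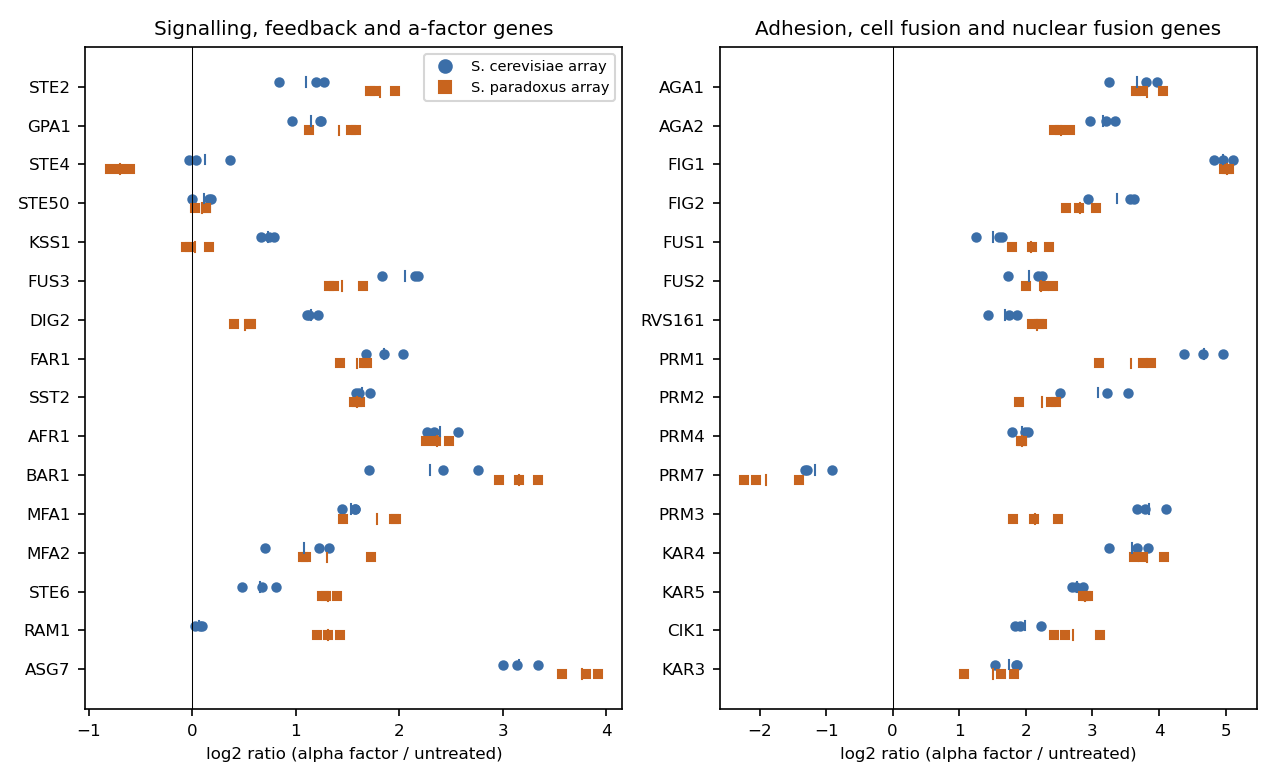
Log2 ratio on each array (points; ticks are means of 3 arrays) for 16 signalling, feedback and a-factor genes (left) and 16 adhesion, cell fusion and nuclear fusion genes (right). FIG1, SST2, AFR1 and PRM4 overlap between the species, STE2, BAR1, STE6 and RAM1 are higher on every S. paradoxus array, and PRM1, PRM3, FUS3, KSS1 and STE4 are lower on every one.

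Among genes of the division cycle, M/G1 genes were more often lower and G2/M genes more often higher in S. paradoxus than all ORFs. Of 25 M/G1 genes, 8 were lower in S. paradoxus (32%, against 7.61% of all ORFs) and 1, CDC6, was higher, with a median difference of −0.31. In these bulk cultures fewer cells at a stage and less RNA per cell cannot be told apart. Beside SCW11, CHS1, a chitin synthase that repairs the septum, rose in S. cerevisiae (1.37, 1.37 and 1.33) and read 0.30, 0.06 and 0.23 in S. paradoxus. Its difference was −1.16 ± 0.189 (limma adjusted p = 0.00182, n = 3 and 3), and S. mikatae read 1.75 ± 0.408 (SD, n = 4). The covalently bound wall proteins PIR1 and PIR3 fell in S. paradoxus (means −0.67 and −0.79) and read 0.24 and 0.25 in S. cerevisiae. DSE4, a daughter-specific glucanase, rose by 0.29 in both.

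Of 27 G2/M genes, 8 were higher in S. paradoxus (29.6%, against 9.5% of all ORFs) and none was lower, with a median difference of 0.29. The 8 include CIK1, also counted among the nuclear fusion genes, with means of 1.99 in S. cerevisiae and 2.71 in S. paradoxus. CDC5, the polo kinase of mitosis, fell in S. cerevisiae (−0.65, −0.65 and −0.49) and rose in S. paradoxus (0.39, 1.21 and 0.74), a difference of 1.38 ± 0.19 (limma adjusted p = 0.000671, n = 3 and 3). PDS1, securin, fell in S. cerevisiae (−0.78 ± 0.382, SD, n = 3) and read −0.04 ± 0.273 in S. paradoxus, but its call was lost without S. cerevisiae replicate 1 or S. paradoxus replicate 2 or 3 (adjusted p up to 0.0812). CLB2, the main mitotic cyclin, fell in S. cerevisiae and differed by 0.38 (limma adjusted p = 0.0516, and 0.0251 with arrays scaled to one spread). The count of 8 dropped to 3 without S. cerevisiae replicate 1 or S. paradoxus replicate 2 and to 5 without S. cerevisiae replicate 3.

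Of 45 G1/S genes, 6 were higher (13.3%, against 9.5% of all ORFs) and 2 lower (4.44%, against 7.61%), with a median difference of 0.12. ELO1, counted here for its cycle-dependent expression, was the highest. SVS1, a wall protein linked to vanadate resistance, fell in both species, by 2.12 ± 0.256 in S. cerevisiae and 0.54 ± 0.226 in S. paradoxus (SD, n = 3 each; difference 1.57, limma adjusted p = 0.000147). The cyclin PCL2 rose by 2.88 ± 0.209 and 2.87 ± 0.0837, with a difference near 0 (95% interval −0.57 to 0.57). The G1 cyclin CLN2 read 0.04 in S. cerevisiae and 0.02 in S. paradoxus, where 2 arrays measured it. limma called 0 of 6 histone genes, against 17.1% of all ORFs. At an unadjusted p under 0.05 limma marked 1, HHT1, and 1 was higher with arrays scaled to one spread. HHT1 and HHT2, near-identical copies encoding histone H3 whose signals may mix, fell in both by 1.53 to 1.85. The number of higher G1/S genes ranged from 3, without S. paradoxus replicate 2, to 9, without S. cerevisiae replicate 2, and was 4 without S. cerevisiae replicate 1 or S. paradoxus replicate 1.

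Most genes for making ribosomes fell in each species, and those that differed were lower in S. paradoxus. Of 94 ribosome biogenesis genes tested 60 fell in S. cerevisiae and 84 in S. paradoxus, with median responses of −0.40 and −0.70. Of the 94, 30 were lower in S. paradoxus (31.9%, against 7.61% of all ORFs) and none higher (against 9.5%). The median difference was −0.32, beside −0.01 for all ORFs, and 85 of 94 were negative. NIP7, a factor of large subunit assembly, read −0.91, −1.29 and −1.27 in S. cerevisiae and −1.92, −2.19 and −1.67 in S. paradoxus (difference −0.77 ± 0.141, limma adjusted p = 0.00243, n = 3 and 3). CIC1 and NOP15, which act in the same assembly path, differed by −0.88 and −0.80, and RIO1, a kinase of small subunit maturation, by −0.71. Not all of the 30 fell in both species, since UTP7, of the small subunit processome, rose in each (means 1.02 and 0.54) and UTP15 read 0.13 in S. cerevisiae. ENP2 fell in both, with a difference of −0.02 (95% interval −0.28 to 0.24).

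The size of this shift depended on scale and on the array. With arrays scaled to one spread 10 of the 94 were lower and 2 higher, and NIP7 lost its call. The list medians on the 3 S. paradoxus arrays were −0.73, −0.89 and −0.50, against −0.42, −0.39 and −0.36 in S. cerevisiae. Without S. paradoxus replicate 3, the least negative of them, 44 genes were lower, and without S. paradoxus replicate 2, the most negative, 14 were. Leaving out S. cerevisiae replicate 1, S. cerevisiae replicate 3 or S. paradoxus replicate 1 left 18 and leaving out S. cerevisiae replicate 2 left 20. Of 72 cytosolic ribosomal protein genes 1, RPS12, was lower (1.39%, against 7.61% of all ORFs) and none higher (against 9.5%). Their median difference was 0.02. The RPS12 call was lost without S. cerevisiae replicate 1 or 3 or S. paradoxus replicate 1 (limma adjusted p up to 0.0696). With arrays scaled to one spread 2 of the 72 were lower.

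The proteasome went the other way. Of 35 genes of the proteasome and its partners 18 rose in S. cerevisiae and 30 in S. paradoxus, with median responses of 0.23 and 0.58. Of the 35, 16 were higher in S. paradoxus (45.7%, against 9.5% of all ORFs) and none lower (against 7.61%). The median difference was 0.35, beside −0.01 for all ORFs, and 33 of 35 were positive. UFD1, which helps extract ubiquitinated proteins for degradation, read −0.01, 0.33 and 0.34 in S. cerevisiae and 1.19, 1.24 and 1.14 in S. paradoxus (difference 0.97 ± 0.141, limma adjusted p = 0.000712, n = 3 and 3). RPN4, the transcription factor of proteasome genes, read −0.01, 0.01 and 0.08 against 0.57, 0.54 and 0.81 (difference 0.61 ± 0.106, limma adjusted p = 0.00247). The lid subunit RPN6 and the ATPase RPT3 rose in both and were higher by 0.63 and 0.59, while PRE9, a core subunit, differed by 0.03. The S. mikatae median was 0.62, though RPN4 read −0.16 ± 0.104 (SD, n = 4) there.

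The list median of every S. paradoxus array lay above those of all S. cerevisiae arrays, with medians of 0.23 to 0.26 in S. cerevisiae and 0.48 to 0.66 in S. paradoxus. The count of 16 fell to 8 when arrays were scaled to one spread. It was 7 without S. paradoxus replicate 1, 8 without S. cerevisiae replicate 1, 9 without S. cerevisiae replicate 3 or S. paradoxus replicate 2, and 16 without S. paradoxus replicate 3.

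Of 27 chaperone genes 8 were higher in S. paradoxus (29.6%, against 9.5% of all ORFs) and 1, SSE2, was lower (3.7%, against 7.61%). The median difference was 0.24. HSP104, the disaggregase, read 0.29, 0.31 and 0.10 in S. cerevisiae and 1.26, 0.85 and 1.62 in S. paradoxus (difference 1.01 ± 0.199, limma adjusted p = 0.00348, n = 3 and 3). SIS1, an Hsp40, rose in both and more in S. paradoxus (0.63 ± 0.212 against 1.60 ± 0.354), as did HSC82, the constitutive Hsp90 (0.48 ± 0.256 against 1.34 ± 0.0161; SD, n = 3 each). ERO1, the oxidase for disulfide bonds in the endoplasmic reticulum, rose in S. paradoxus alone (0.79 ± 0.264) and differed by 0.79. S. mikatae read 1.06 ± 0.273 for HSP104 and 0.74 ± 0.127 for ERO1 (n = 4 each). Of 39 general stress genes 4 were higher (10.3%, against 9.5% of all ORFs) and 5 lower (12.8%, against 7.61%). The lower count was 8 with arrays scaled to one spread and 3 without S. cerevisiae replicate 1 or 3 or S. paradoxus replicate 1 or 2. Among them GPH1, glycogen phosphorylase and chromosomal neighbour of KRE6, rose in S. cerevisiae (0.98, 0.48 and 0.53) and fell in S. paradoxus (−0.59, −1.44 and −0.28), a difference of −1.43 ± 0.238 (limma adjusted p = 0.00204).

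Ergosterol synthesis genes had a median difference of 0.46. Of 27 genes 12 were higher in S. paradoxus (44.4%, against 9.5% of all ORFs) and 1, ERG28, was lower (3.7%, against 7.61%). These counts were the same with arrays scaled to one spread. The list medians were −0.20 to −0.03 on the S. cerevisiae arrays and 0.22 to 0.33 on the S. paradoxus arrays, and −0.05 in S. mikatae. ECM22, a transcription factor of sterol genes, fell in S. cerevisiae (−0.51, −0.25 and −0.23) and rose in S. paradoxus (0.30, 0.77 and 0.62), a difference of 0.89 ± 0.132 (limma adjusted p = 0.00101, n = 3 and 3). ERG6 read −0.29, −0.26 and −0.06 against 1.01, 0.52 and 0.42 (difference 0.85 ± 0.146, limma adjusted p = 0.00241). ERG24, a sterol reductase, was higher by 0.71, a call lost without S. cerevisiae replicate 1 or 3 or S. paradoxus replicate 1 (adjusted p up to 0.0983). ERG28, a scaffold of the pathway, rose in S. cerevisiae (0.64, 1.22 and 0.29) and read −0.42, −0.15 and −0.37 in S. paradoxus (difference −1.03). OLE1, the fatty acid desaturase, fell in both species and less in S. paradoxus, by 2.42 ± 0.343 against 1.39 ± 0.218 (SD, n = 3 each).

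**Figure D4:**
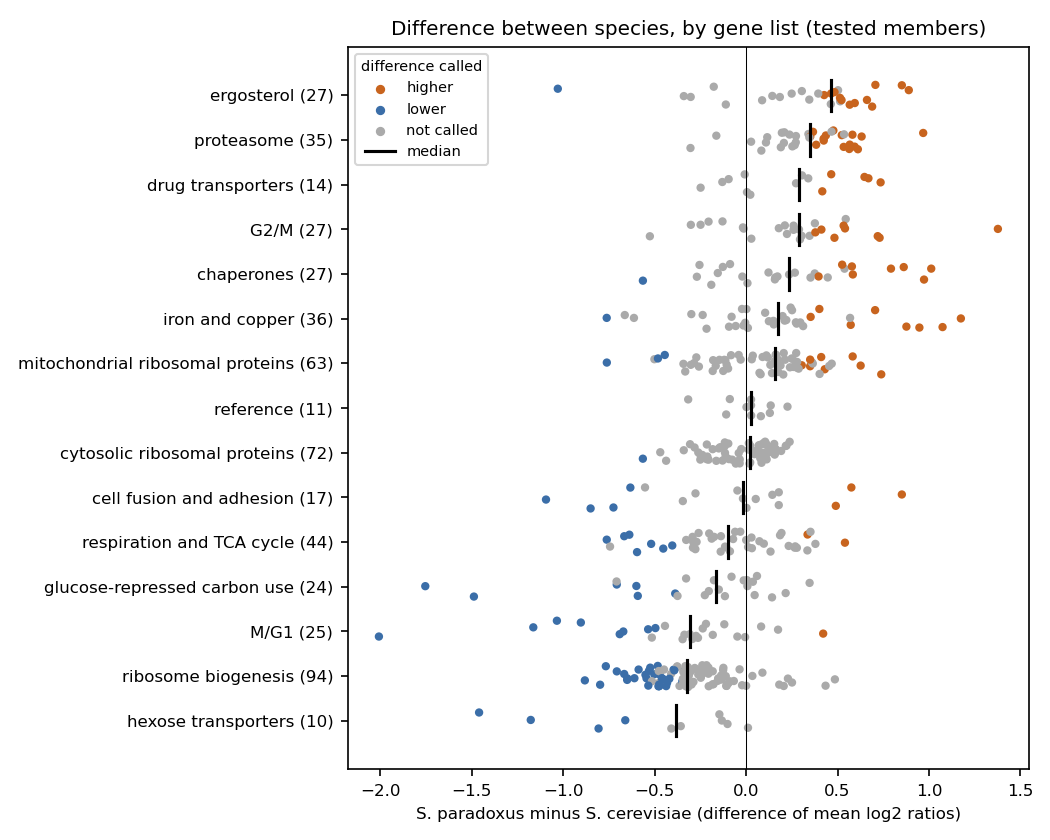
Difference of mean log2 ratios, S. paradoxus minus S. cerevisiae (x axis), for each tested member of 15 gene lists (number of members in brackets), coloured by call at adjusted p under 0.05, with the list median as a black bar. The medians of the lists shown run from 0.46 for ergosterol to −0.38 for hexose transporters, and the reference genes and cytosolic ribosomal proteins lie near 0.

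The genes of sugar transport and alternative carbon use that differed were lower in S. paradoxus. Of 10 genes of hexose transport and its regulators 4 were lower (40%, against 7.61% of all ORFs) and none higher (against 9.5%). The median difference was −0.38. HXT2, a high-affinity transporter, read 0.08, 0.09 and 0.18 in S. cerevisiae and −1.02, −1.06 and −1.10 in S. paradoxus (difference −1.18 ± 0.132, limma adjusted p = 0.000169, n = 3 and 3). HXT10 and HXT5 differed by −1.46 and −0.81, and the repressor MIG2 by −0.66, a call lost without S. cerevisiae replicate 2 or S. paradoxus replicate 1 (adjusted p up to 0.0957). Of 24 glucose-repressed genes 6 were lower (25%, against 7.61% of all ORFs) and none higher (against 9.5%). The count of 6 was 3 without S. paradoxus replicate 2. With PCK1 and ICL1 stood MLS1, malate synthase of the glyoxylate cycle (difference −0.71). In S. mikatae ICL1 read 0.00 ± 0.057 (SD, n = 4). PYK2, the minor pyruvate kinase, rose in S. cerevisiae (1.12 ± 0.356) and read 0.14 ± 0.193 in S. paradoxus (difference −0.97).

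Of 44 genes of respiration and the TCA cycle, 7 were lower (15.9%, against 7.61% of all ORFs) and 2 higher (4.55%, against 9.5%). QCR10, a subunit of complex III, rose in S. cerevisiae (0.77, 0.77 and 0.46) and read −0.26, −0.13 and 0.10 in S. paradoxus (difference −0.76 ± 0.147, limma adjusted p = 0.00313). The higher count was 0 with arrays scaled to one spread or without S. cerevisiae replicate 1, and 1 without any other array. The count of 7 was 3 without S. cerevisiae replicate 1, S. paradoxus replicate 1 or S. paradoxus replicate 3.

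Of 36 genes for iron and copper 8 were higher (22.2%, against 9.5% of all ORFs). The copper transporter CTR1 was the 1 lower member (2.78%, against 7.61%). The median difference was 0.18, and 5 were higher without S. cerevisiae replicate 1. With arrays scaled to one spread 10 were higher and none lower, so CTR1 lost its call, and 2 were lower without S. paradoxus replicate 2 or 3. FTR1, the iron permease, fell in S. cerevisiae (−0.68, −0.62 and −0.49) and rose in S. paradoxus (0.30, 0.05 and 0.70), a difference of 0.95 ± 0.16 (limma adjusted p = 0.00228, n = 3 and 3). CUP1-1, a metallothionein present in near-identical copies that the probe may not separate, rose in S. paradoxus alone (1.01 ± 0.516 against −0.17 ± 0.318, SD, n = 3 each). Of 14 genes for multidrug and polyamine export and their regulators 5 were higher (35.7%, against 9.5% of all ORFs) and none lower (against 7.61%). The polyamine exporters TPO1 and TPO4 differed by 0.74 and 0.67. TPO1 fell in S. cerevisiae and rose in S. paradoxus, and TPO4 fell in both. The count of 5 was 2 without S. paradoxus replicate 1 and 3 without S. cerevisiae replicate 1 or 2 or S. paradoxus replicate 2.

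Single genes of other pathways differed as well. PHO84, the high-affinity phosphate transporter, fell in both species, to −1.07, −1.27 and −1.13 in S. cerevisiae and −2.19, −2.01 and −2.03 in S. paradoxus (difference −0.92 ± 0.105, limma adjusted p = 0.000101, n = 3 and 3), and read −0.05 ± 0.144 (SD, n = 4) in S. mikatae. BDP1, a subunit of the RNA polymerase III initiation factor TFIIIB, read −0.25, −0.46 and −0.33 against 0.90, 1.75 and 0.90 (difference 1.53 ± 0.218, limma adjusted p = 0.000761). PGU1, a secreted polygalacturonase of the filamentation programme, rose in both and less in S. paradoxus (1.40 ± 0.199 against 0.38 ± 0.0762, SD, n = 3 each; limma adjusted p = 0.000205). Among the mitochondrial ribosomal proteins 8 of 63 were higher (12.7%, against 9.5% of all ORFs) and 3 lower (4.76%, against 7.61%), with MRPL16 at 0.16 ± 0.0822 and 0.90 ± 0.0749. Of the 3 lower, MRP8 (difference −0.76) stands in this list through its name alone. The count of 8 higher was 2 or 3 with any 1 array left out except S. paradoxus replicate 3, and 10 without the latter. limma called 0 of 11 reference genes, against 17.1% of all ORFs (1, TAF10, passed at an unadjusted p under 0.05). Actin (ACT1) differed by −0.09 (95% interval −0.33 to 0.15).

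The third species did not side with either one throughout. Of 682 called ORFs with at least 3 S. mikatae values, the S. mikatae mean was nearer to S. cerevisiae for 387 (56.7%), 237 of 380 among those higher in S. paradoxus and 150 of 302 among those lower. ELO1, MAK32, CDC5 and CHS1 were nearer to S. cerevisiae, and HEL2, RAM1, CSS1, MET6 and ASF1 nearer to S. paradoxus. In proteasome genes the S. mikatae median lay with S. paradoxus, and in ergosterol genes nearer to S. cerevisiae. The S. cerevisiae filter matings, which share the strain BY4741, were nearer to the S. cerevisiae alpha factor arrays for 422 of 530 called ORFs measured there (79.6%). These are counts without a test, over ORFs chosen by their difference, and the share over all ORFs was not taken. The S. paradoxus means were spread more widely (SD 0.489) than those of S. cerevisiae (0.405). A group with values near 0 can therefore lie nearer to S. cerevisiae without resembling it.

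**Figure D5:**
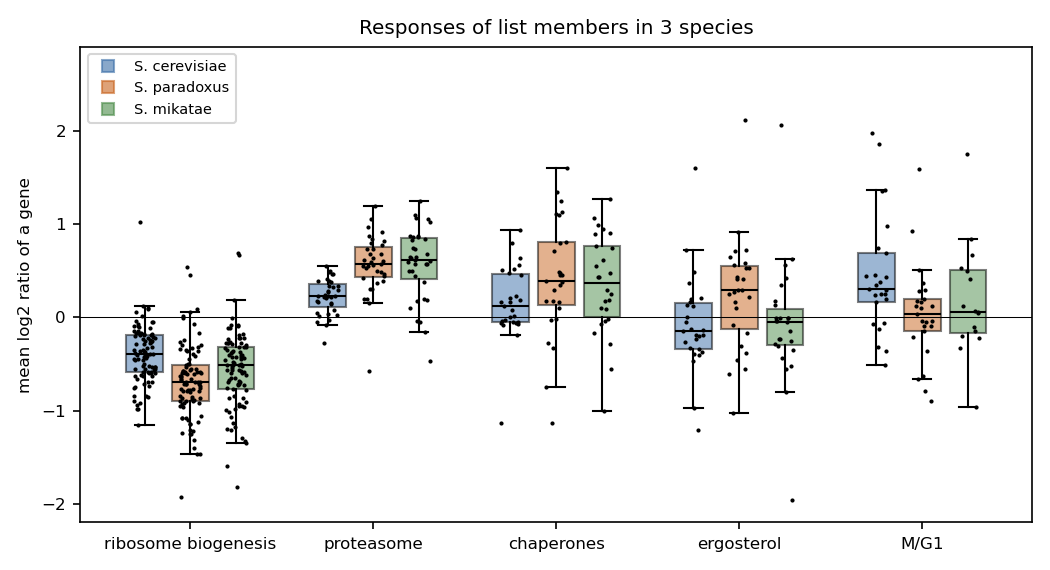
Mean log2 ratio of each gene (points) in 5 gene lists for S. cerevisiae, S. paradoxus and S. mikatae, where boxes span the quartiles, the bar is the median and whiskers reach the last gene within 1.5 box lengths. Ribosome biogenesis medians are −0.40, −0.70 and −0.52, proteasome medians 0.23, 0.58 and 0.62, and ergosterol medians −0.15, 0.29 and −0.05 in that order.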

How the data were processed

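The deposited values were taken as log2 ratios, 1 per ORF and array, from 13 S. cerevisiae cDNA arrays with 2 colours, as the authors deposited them in the series table. All fold values rest on that reading. Per the labels, channel 1 is the treated sample. The sources used here do not give the log base, centring, direction, background correction or normalization. Array medians lay between −0.00931 and 0.00805.

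The median of each array was subtracted. A mean per group was fitted in limma 3.58.1 (R 4.3.3, statmod 1.5.0) to all 13 arrays, leaving 9 residual degrees of freedom for ORFs on every array. The contrast S. paradoxus minus S. cerevisiae and both responses were tested two-sided with eBayes over 4718 ORFs, with Benjamini-Hochberg adjustment, and called under 0.05. SE and 95% intervals come from this fit, SD from the arrays. With 3 arrays against 3, an exact permutation test could not go below 0.1. Symbols came from a RefSeq gene table (5651 of 6132 ORFs matched). No sequences were used. On each S. cerevisiae array 31 to 39 ORFs shared a value with another ORF.

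Members, gene lists and the naming rule were chosen with earlier results of these data known. Some genes, such as CIK1, ERG6 and PRM2, are counted in more than 1 list. Named were the 12 highest and 12 lowest called differences measured on all 6 arrays without overlap, the 8 highest and 8 lowest of opposite sign, up to 5 members of each list (largest differences and the one nearest 0) and 16 mating, cycle and reference genes. Other genes, including neighbours, genes that resolve a small count and extra genes in the plot of mating genes, were picked with their values in view. That replicates are biological rests on the labels alone. Alternatives were no centring, scaling to one spread, quantile normalization, ORFs on all 6 arrays, the 6 arrays alone, array weights, robust eBayes, a required change of 0.5, the replicate number as a block, and each array omitted in turn. Tested on simulated data of 4718 ORFs, the difference recovered 60 of 100 ORFs changed by 0.5 and 89 of 100 changed by 1, with 3.87% false calls. The simulated noise was normal, independent between ORFs and arrays, and of the same SD for an ORF in every group. It held no shift shared by genes of an array and no wider spread in S. paradoxus. The share of false calls in the real data therefore cannot be read from it.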

Additional observations from a re-analysis of the deposited data

Results flagged for a closer look

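In 77 ORFs both species responded past the threshold in opposite directions while the difference itself passed, and those given here, 8 on each side, are the ones whose smaller response was largest, as differences (S. paradoxus minus S. cerevisiae, log2). Higher in S. paradoxus were ELO1 (3.24), HSP30 (1.74), CDC5 (1.38), RAD5, a helicase of post-replication repair (1.23), TDA7 (1.22), NUP116, a nuclear pore protein (1.16), PPN2, a vacuolar polyphosphatase (1.13) and FPY1 (0.9997). NUP116 read −0.53, −0.50 and −0.54 in S. cerevisiae and 0.74, 0.63 and 0.53 in S. paradoxus. PPN2 was at −0.55 ± 0.0535 and 0.58 ± 0.15, and 0.35 ± 0.114 in S. mikatae (SD, n = 3, 3 and 4).

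Lower in S. paradoxus were CSS1 (−2.001), NFG1 (−1.91), KRE6 (−1.56), its neighbour GPH1 (−1.43), YOR342C (−1.33), MET17 (−0.88), ZRG8 (−0.86) and MRP8 (−0.76). MET17 is deleted in BY4741, so its S. cerevisiae value cannot come from an intact gene. MRP8 stands in the mitochondrial ribosomal list through its name alone. CSS1 read 0.71, 0.89 and 0.77 in S. cerevisiae, −1.16, −1.17 and −1.29 in S. paradoxus and −1.45 ± 0.388 (SD, n = 4) in S. mikatae.

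One of the 4 S. mikatae arrays lay apart from the others for ACT1, at 0.23. Of 34 groups of 4 examined, about 1 in 20 would be so marked by chance.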

How the results depend on the processing

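The difference between the species was called for 807 ORFs, and for 685 to 810 without centring, with arrays scaled to one spread, with quantile normalization, with ORFs on all 6 arrays, with the 6 arrays alone or with robust eBayes. Array weights gave 1246 and a change of at least 0.5 gave 55, of which 70.9% were higher in S. paradoxus against 55.5%. Leaving out 1 array gave 489 to 753, with 489 without S. cerevisiae replicate 1, 535 without S. cerevisiae replicate 3 and 492 without S. paradoxus replicate 1. The S. cerevisiae response (1660) gave 114 with a change of at least 0.5 and 1037 to 1696 with an array left out, the lowest without S. cerevisiae replicate 3. The S. paradoxus response (2321) gave 279 with a change of at least 0.5 and 1706 to 2340 with an array left out. A larger required change lowers the counts by construction. Leaving out an array could also raise a response count. The S. cerevisiae response gave 1696 without S. paradoxus replicate 2, and the S. paradoxus response 2340 without S. cerevisiae replicate 2. Why the counts moved with the array left out was not tested. No named gene changed sign: for the 128 called among the 244 named genes, 1646 repeats kept the call and 274 lost it, and for the others 1667 stayed without a call and 72 gained one. Scaling to one spread brought the counts of the S. cerevisiae and S. paradoxus responses to 2026 and 2037, and quantile normalization to 2029 and 2066. The fit with the replicate number as a block called 507 ORFs. Arrays with the same number in the 2 species deviated together at r = 0.0183, −0.0920 and −0.0262 and others at −0.140 to 0.142, so the numbers were not taken as pairs.

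Limits are the 3 arrays and 1 strain per species, 1 time and dose, S. cerevisiae probes with unmeasured mismatch, labels that disagree about dyes, and a wider spread in S. paradoxus. In the simulated data differences of 0.5 were often missed at this size.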
